A study of Mus musculus with 92 samples.

Results

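The genes described here are 6 of the 56953 gene IDs in the deposited tables: Prkab1, Ublcp1, Myg1, Tbrg1, Fibp and Sssca1. They were picked by name for strong falls at 12 h, and because they were missing from the largest decreases at the earliest times. The selection had no numerical threshold, so no gene stands just inside or outside it. All 6 passed the filter on low counts in RNA-seq (16396 genes tested) and in SLAM-seq (15887 genes tested). The early times were followed in the GABPA line only, so values of that line entered the choice and are given as a description without a test. The tests concern the lines in which the partner subunits carried the tag. Whether the 12 h values of those lines also entered the choice is not known, so these tests may not be independent of it.

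GABP is a transcription factor made of GABPA, an ETS-family protein that binds DNA at GGAA cores, and of GABPB1 or its paralog GABPB2, which carry the activation domain. It is known for binding promoters of broadly expressed genes, among them genes of mitochondria, ribosome production and protein turnover. Loss of GABPA is known to be lethal to early mouse embryos. Prkab1 encodes a regulatory β subunit of AMPK, the kinase that senses cellular energy. Ublcp1 encodes a phosphatase of nuclear proteasomes, and Myg1 an RNA exonuclease of the nucleolus and mitochondria. Tbrg1 encodes a growth-inhibitory nuclear protein that binds ARF and MDM2, Fibp a protein that binds acidic fibroblast growth factor inside cells, and Sssca1, renamed Znrd2, a zinc-ribbon protein first described as an autoantigen.

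B6 mouse embryonic stem cells (mESCs) in serum with LIF, PD0325901 and CHIR99021 carried homozygous dTAG alleles, so that the degrader compound dTAG-13 brings about the destruction of the tagged protein by the proteasome. The lines are labelled GabpadTAG/dTAG, Gabpb1/b2dTAG/dTAG and Gabpb1dTAG/dTAG, and each was given 500 nM dTAG-13 or its solvent, DMSO. The 12 RNA-seq libraries come from all 3 lines after 12 h. The 14 SLAM-seq libraries come from the GABPA line after 1, 2, 4 and 12 h and were read from the 3′ ends of polyadenylated RNA, with 1 DMSO group shared by 2 h and 4 h. In SLAM-seq 500 µM 4-thiouridine is built into new RNA, whose reads are then recognised by T-to-C conversions. Each of the 13 groups held 2 libraries, and the sources used here do not say whether a line is a single clone or how long the 4-thiouridine pulse was. The tag acts on protein, which was not analysed here.

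RNA-seq libraries held 15.96 to 32.09 M counts, and SLAM-seq libraries 11.48 to 30.69 M reads, of which 0.94 to 4.25 M (5.06% to 14.12%) were converted. In each group the spread between replicates exceeded counting error (chi-square of 1.96 to 16.1 per degree of freedom). All 10 embryonic stem cell markers were detected, with a summed level of 10900 to 12452 TPM in each RNA-seq library. Markers of fibroblast feeders summed to 2.34 to 6.96 TPM, and 4 of the 6, like 4 of the 8 lineage markers, stayed under 1 TPM everywhere. Lineage markers summed to 5.58 to 27.4 TPM over all RNA-seq libraries, so their level differed between the lines. In the GABPA line they summed to 15.8 to 16.0 TPM in dTAG-13 and 25.7 to 27.4 TPM in DMSO libraries, and their part in the results was not tested. In bulk samples fewer expressing cells and less RNA per cell cannot be told apart.

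The promoters are shown first because GABP recognises short DNA letters, and because sequence played no part in the choice of the genes. RefSeq windows on GRCm38.p6 run 5′ to 3′ on the gene's strand from 250 bases before the annotated start to 50 bases after it. The windows are chr5:116024379-116024678 (minus strand) for Prkab1, chr11:44470499-44470798 (minus) for Ublcp1, chr15:102331459-102331758 (plus) for Myg1, chr9:37657263-37657562 (minus) for Tbrg1, chr19:5460357-5460656 (plus) for Fibp and chr19:5731683-5731982 (minus) for Sssca1, matched under its RefSeq name Znrd2. Capitals mark the ETS core CCGGAA or, on the other strand, TTCCGG.
Prkab1: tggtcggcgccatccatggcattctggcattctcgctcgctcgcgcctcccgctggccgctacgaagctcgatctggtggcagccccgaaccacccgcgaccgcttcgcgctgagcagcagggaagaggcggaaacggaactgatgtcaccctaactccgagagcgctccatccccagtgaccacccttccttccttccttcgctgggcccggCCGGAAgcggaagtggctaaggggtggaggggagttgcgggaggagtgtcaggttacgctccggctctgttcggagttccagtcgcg
Ublcp1: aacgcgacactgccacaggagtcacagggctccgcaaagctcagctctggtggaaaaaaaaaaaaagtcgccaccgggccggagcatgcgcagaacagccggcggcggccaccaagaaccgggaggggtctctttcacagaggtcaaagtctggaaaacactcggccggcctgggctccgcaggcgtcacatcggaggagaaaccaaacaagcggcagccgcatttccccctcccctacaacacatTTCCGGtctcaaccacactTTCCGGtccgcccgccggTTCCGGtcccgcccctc
Myg1: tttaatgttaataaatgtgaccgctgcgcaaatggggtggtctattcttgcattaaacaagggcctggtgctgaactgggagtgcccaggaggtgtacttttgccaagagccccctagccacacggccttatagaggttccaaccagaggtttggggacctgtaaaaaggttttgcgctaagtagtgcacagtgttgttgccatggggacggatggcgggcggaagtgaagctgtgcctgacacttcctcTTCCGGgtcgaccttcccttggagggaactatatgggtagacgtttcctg
Tbrg1: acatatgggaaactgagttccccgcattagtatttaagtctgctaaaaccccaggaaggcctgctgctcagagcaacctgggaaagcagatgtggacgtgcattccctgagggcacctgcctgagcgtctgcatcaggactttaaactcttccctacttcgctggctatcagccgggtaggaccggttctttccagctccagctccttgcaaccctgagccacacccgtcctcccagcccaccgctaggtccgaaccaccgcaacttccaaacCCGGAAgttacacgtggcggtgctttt
Fibp: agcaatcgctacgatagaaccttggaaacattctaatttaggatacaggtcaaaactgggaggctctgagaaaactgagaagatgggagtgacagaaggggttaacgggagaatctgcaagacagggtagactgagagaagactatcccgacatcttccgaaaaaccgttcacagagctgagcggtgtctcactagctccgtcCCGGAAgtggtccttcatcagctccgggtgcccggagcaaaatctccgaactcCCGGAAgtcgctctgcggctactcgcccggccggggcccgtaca
Sssca1: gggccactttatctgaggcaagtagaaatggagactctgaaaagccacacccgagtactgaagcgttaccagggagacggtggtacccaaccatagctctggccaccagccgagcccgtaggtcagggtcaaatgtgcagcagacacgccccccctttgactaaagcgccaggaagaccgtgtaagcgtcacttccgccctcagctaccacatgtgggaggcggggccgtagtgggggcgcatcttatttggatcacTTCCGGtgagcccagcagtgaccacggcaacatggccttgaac

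The core CCGGAA, searched on both strands, was present in 6 of 6 windows, against 14.9% of the 32851 promoter windows of the table and 27.9% of the 11945 windows of genes tested in both assays. Ublcp1 held 3 cores, centred 1 base before and 18 and 36 bases after the start, all on the opposite strand. Fibp held 2, centred 44 bases before and 9 bases after the start, and such windows with 2 or more cores made up 3.59% of the table. The single CCGGAA lay 34 bases before the start of Prkab1, and 3, 26 and 10 bases after the starts of Myg1, Tbrg1 and Sssca1. GGAA in other surroundings, as in gcggaagt of Prkab1 and Myg1, was not searched for and is not marked. The longer motif CCGGAAGT, which contains the core, was present in 3 of 6 windows, those of Tbrg1, Fibp (at both cores) and Sssca1, against 3.89% of all windows and 8.3% of those of genes tested in both assays. A match is a description of the letters and shows no binding.

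**Figure D1:**
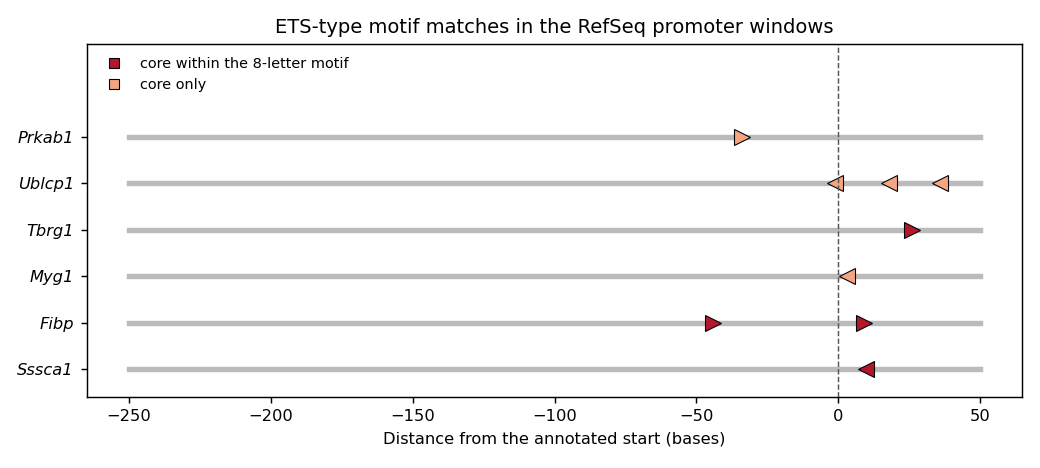
Matches to the core CCGGAA in the RefSeq promoter window of each gene, by distance from the annotated start in bases (arrowheads give the strand, dark red marks a core inside CCGGAAGT). All 6 windows hold a core between 44 bases before and 36 bases after the start.

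The SLAM-seq time course dates the decreases, beginning with the kinase subunit, the phosphatase and the nuclease. Converted reads of all 3 were already scarce 1 h after dTAG-13, at 27.8% of DMSO for Prkab1, 29.5% for Ublcp1 and 35.8% for Myg1. Values are CPM of converted reads, scaled with edgeR, and log2 fold changes are dTAG-13 over DMSO with the SE of the fit. Both dTAG-13 libraries lay below both DMSO libraries for 21.4% of all genes tested at 1 h and 21.5% at 2 h. This share was 21.8% at 4 h and 33.4% at 12 h, so separate groups are no mark of these genes.

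Prkab1 (ENSMUSG00000029513.15, mm39 chr5:116151645-116162567, minus strand) had 19.1 and 12.6 CPM at 1 h of dTAG-13 (21 and 12 converted reads), against 56.1 and 59.7 CPM in DMSO (52 and 67 reads). At 2 h it had 31.9 and 19.3 CPM and at 4 h 28.6 and 15.4 CPM in dTAG-13, against 64.4 and 68.3 CPM in the shared DMSO group. It then had 2.41 and 1.70 CPM at 12 h in dTAG-13, against 87.8 and 87.1 CPM in DMSO. Every dTAG-13 library was below both DMSO libraries at each time. The log2 fold changes were -1.85 ± 0.32 at 1 h, -1.36 ± 0.26 at 2 h, -1.63 ± 0.28 at 4 h and -5.28 ± 0.34 at 12 h, so new Prkab1 RNA lay between 27.8% and 39.0% of DMSO up to 4 h and at 2.58% at 12 h.

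Ublcp1 (ENSMUSG00000041231.16, mm39 chr11:44345398-44361325, minus strand) had 8.19 and 10.5 CPM at 1 h of dTAG-13 (9 and 10 reads), against 30.2 and 33.0 CPM in DMSO (28 and 37 reads). It had 9.81 and 16.4 CPM at 2 h and 12.8 and 5.85 CPM at 4 h in dTAG-13, against 39.1 and 37.2 CPM in DMSO. At 12 h only 5 and 2 converted reads (1.20 and 1.13 CPM) were left in dTAG-13, against 121 and 112 reads (55.9 and 50.5 CPM) in DMSO. The groups did not overlap at any time, and the log2 fold changes were -1.76 ± 0.39, -1.55 ± 0.31, -2.08 ± 0.35 and -5.41 ± 0.40 at 1, 2, 4 and 12 h, with the 12 h value ranking 5 among 13363 genes whose log2 CPM averaged 3 or more. Of the reads in the Ublcp1 interval, 41.9% were counted as mapping to several places, against 0.132% to 0.956% for the other 5 genes, so its SLAM-seq values may include reads of other loci.

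Myg1 (ENSMUSG00000001285.13, mm39 chr15:102240144-102246574, plus strand) had 12.7 and 11.6 CPM at 1 h of dTAG-13 (14 and 11 reads), against 34.5 and 33.9 CPM in DMSO (32 and 38 reads). In dTAG-13 it had 8.59 and 11.4 CPM at 2 h and 10.9 and 5.85 CPM at 4 h, against 31.4 and 42.3 CPM in DMSO. The 12 h libraries held 5.78 and 9.64 CPM in dTAG-13, against 63.8 and 64.1 CPM in DMSO. The dTAG-13 level of Myg1 thus stayed between 5.78 and 12.7 CPM throughout, while the DMSO level was higher in the 12 h libraries. Its log2 fold changes were -1.48 ± 0.36, -1.89 ± 0.32, -2.19 ± 0.35 and -3.14 ± 0.30.

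Tbrg1 (ENSMUSG00000011114.19, mm39 chr9:37560059-37568608, minus strand) had the most converted reads of the 6, with 139 and 179 CPM at 1 h of dTAG-13, against 217 and 184 CPM in DMSO. It had 110.0 and 113 CPM at 2 h and 65.1 and 78.3 CPM at 4 h in dTAG-13, against 187 and 188 CPM in DMSO. At 12 h it had 28.2 and 35.7 CPM in dTAG-13, against 207 and 204 CPM in DMSO. Each step in time was lower than the last, with log2 fold changes of -0.33 ± 0.18, -0.75 ± 0.17, -1.38 ± 0.18 and -2.71 ± 0.18. The groups did not overlap at any time, but at 1 h this rested on 179 CPM in dTAG-13 against 184 CPM in DMSO. With 1 library left out, the 1 h change of Tbrg1 lay between -0.52 and -0.14.

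Fibp (ENSMUSG00000024911.8, mm39 chr19:5510643-5515079, plus strand) had 4.55 and 14.7 CPM at 1 h of dTAG-13 (5 and 14 reads), against 17.2 and 14.3 CPM in DMSO (16 reads each), and these groups overlapped. Without replicate 1 of dTAG-13 its 1 h change was -0.07, and without replicate 2 it was -1.77, so its start cannot be dated at this depth. It had 10.4 and 7.13 CPM at 2 h and 7.90 and 6.58 CPM at 4 h in dTAG-13, against 23.7 and 18.9 CPM in DMSO. At 12 h it had 5.54 and 3.40 CPM in dTAG-13, against 33.3 and 36.5 CPM in DMSO, and from 2 h on the groups were apart. The log2 fold changes were -0.74 ± 0.48, -1.25 ± 0.40, -1.56 ± 0.43 and -2.85 ± 0.37.

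Sssca1 (ENSMUSG00000079478.10, mm39 chr19:5780331-5781760, minus strand, with its start 271 kb from that of Fibp) was nearest to its DMSO level at 1 h. It had 52.8 and 66.2 CPM in dTAG-13 (58 and 63 reads), against 61.4 and 62.4 CPM in DMSO (57 and 70 reads), a log2 fold change of -0.06 ± 0.23 that ranked 5833 of 13363. At 2 h it had 41.1 and 30.7 CPM and at 4 h 11.8 and 14.6 CPM in dTAG-13, against 95.2 and 78.5 CPM in DMSO. At 12 h it had 4.57 and 3.40 CPM in dTAG-13, against 99.3 and 112 CPM in DMSO. From 2 h on the groups were apart, at -1.26 ± 0.22, -2.69 ± 0.26 and -4.64 ± 0.27, ranking 284, 27 and 18. Between 2 h and 4 h of dTAG-13, which share their DMSO group, Sssca1 changed by -1.42 ± 0.29, the widest step of the 6, while the other 5 changed by -0.62 to -0.27.

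**Figure D2:**
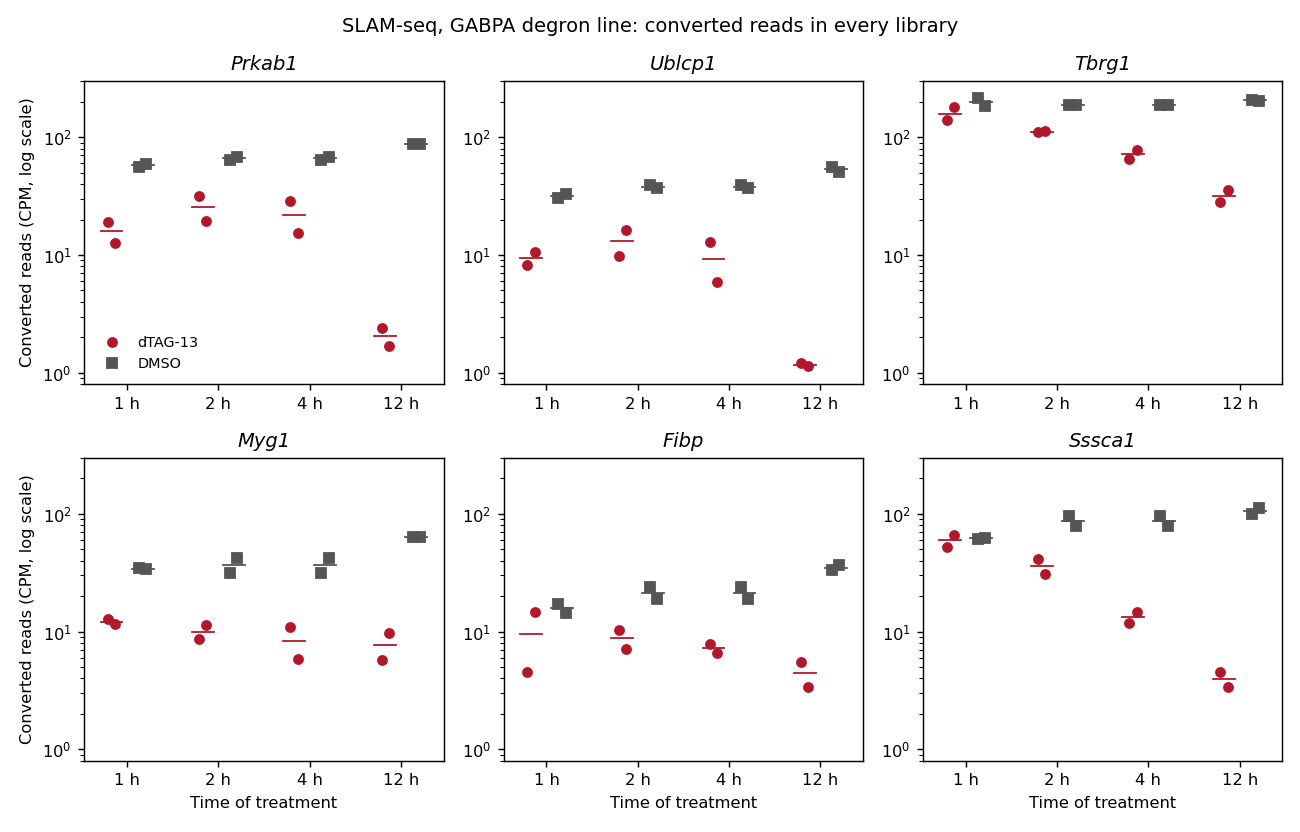
Converted SLAM-seq reads in every library of the GABPA line (CPM, log scale) by time of treatment, dTAG-13 as red circles and DMSO as grey squares, with a line at each group mean (n = 2); the DMSO libraries at 2 h and 4 h are the same. Prkab1, Ublcp1 and Myg1 are apart from DMSO at 1 h, whereas Sssca1 is level with DMSO at 1 h and at 4.57 and 3.40 CPM in dTAG-13 at 12 h.

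Over the 6 genes, the median log2 fold change of converted reads was -1.11 at 1 h, -1.31 at 2 h, -1.86 at 4 h and -3.89 at 12 h, while the median of all genes tested lay between 0.00 and 0.04. Called lower, at an adjusted p under 0.05, were 3 of the 6 at 1 h (1.72% of all genes), 5 at 2 h (3.21%), 6 at 4 h (3.91%) and 6 at 12 h (18.3%), and nothing is read from these counts because the same contrasts chose the genes. The 1 h count was 1 without DMSO replicate 1, without DMSO replicate 2 or without dTAG-13 replicate 1, and 0 without dTAG-13 replicate 2. The 2 h count was 3 without dTAG-13 replicate 1 or replicate 2. As a description, Prkab1, Ublcp1 and Myg1 ranked 74, 88 and 177 of 13363 at 1 h. Their 1 h log2 change was 47.1% (Myg1), 35.0% (Prkab1) and 32.5% (Ublcp1) of the change at 12 h. This percentage was 26% for Fibp, 12.2% for Tbrg1 and 1.29% for Sssca1. Of all reads in a library, 5.06% to 6.08% were converted at 1 h and 12.05% to 14.12% at 12 h. With the pulse length unknown, the times may cover different spans of labelling, so these percentages are not parts of 1 course.

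All reads of a gene, labelled or not, gave smaller medians than converted reads at 1, 2 and 4 h. At 1 h the all-read log2 fold changes of the 6 genes ran from -0.25 ± 0.18 (Myg1) to 0.17 ± 0.17 (Fibp), with a median of -0.12. The median was -0.45 at 2 h, where Prkab1 was lowest at -0.85 ± 0.17 and Fibp highest at -0.08 ± 0.17. At 4 h it was -1.20, between -1.48 ± 0.15 (Sssca1) and -0.53 ± 0.17 (Fibp). By 12 h it was -3.91, between -4.74 ± 0.18 (Sssca1) and -3.07 ± 0.18 (Tbrg1), beside -3.89 for converted reads. At 12 h the all-read change was the smaller one for Ublcp1 (-3.30 against -5.41 in converted reads) and Prkab1 (-4.49 against -5.28), and the larger one for Myg1 (-4.45 against -3.14), Fibp (-3.37 against -2.85), Tbrg1 (-3.07 against -2.71) and, by less than its SE, Sssca1 (-4.74 against -4.64). At 1 h Prkab1 had 719 and 606 reads in all (35.6 and 32.5 CPM) in dTAG-13, against 636 and 666 reads (38.3 and 35.6 CPM) in DMSO.

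**Figure D3:**
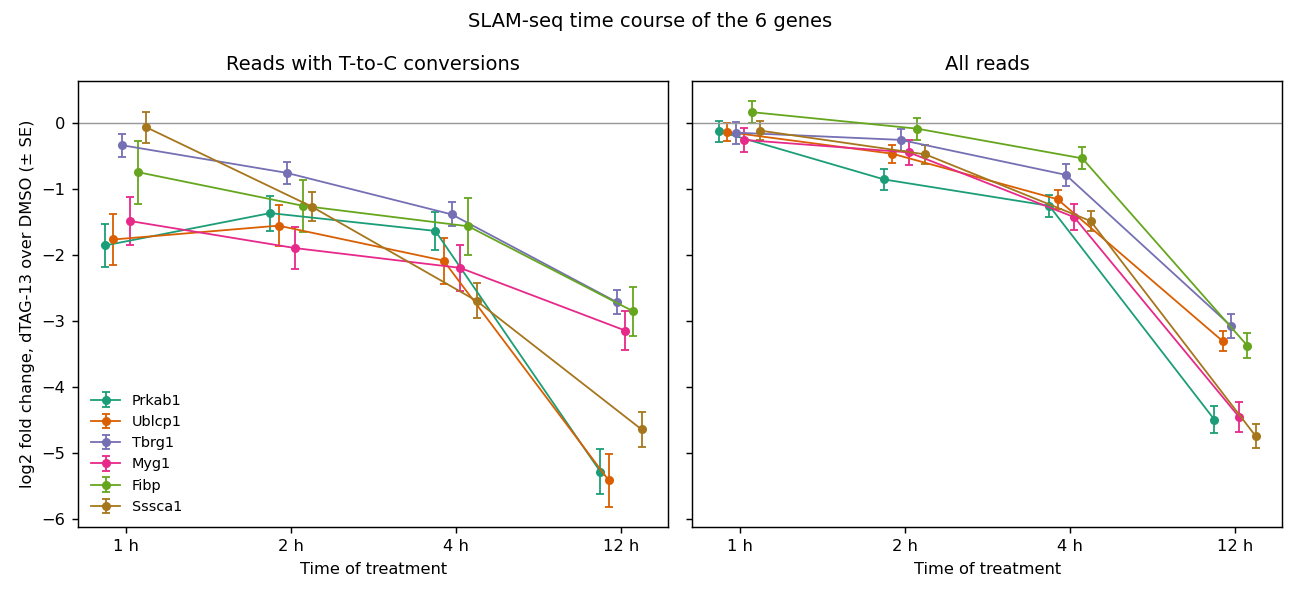
Log2 fold change of each gene, dTAG-13 over DMSO (± SE, 2 libraries a group), by time of treatment in converted reads (left) and in all reads (right). At 1 h the converted reads spread from -1.85 to -0.06 while all reads lie between -0.25 and 0.17, and at 12 h all values lie at -2.71 or lower.

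The converted share of a gene's reads was followed as well, with the reads of both libraries of a group summed. For Prkab1 33 of 1325 reads were converted at 1 h of dTAG-13 (2.49%, 95% Wilson interval 1.78% to 3.48%), against 119 of 1302 in DMSO (9.14%, 7.69% to 10.8%). For Sssca1 the 1 h shares were 4.83% (4.06% to 5.74%) in dTAG-13 and 5.17% (4.36% to 6.11%) in DMSO, whereas at 4 h they were 4.50% (3.21% to 6.28%) in dTAG-13 and 12.7% (11.4% to 14%) in the shared DMSO group. These intervals cover counting error only and leave out the spread between the summed libraries. The reads carry no molecular identifiers here. At 12 h the share was lower in dTAG-13, with intervals apart, for 2 genes: Ublcp1 had 3.38% (1.65% to 6.81%) in dTAG-13 against 19.1% (16.9% to 21.3%) in DMSO, and Prkab1 12.3% (7.31% to 19.9%) against 28.1% (25.8% to 30.5%). For Sssca1 (12% in dTAG-13 against 14.1% in DMSO), Tbrg1 (12.5% against 13.2%) and Fibp (11.4% against 9.69%) the intervals overlapped. For Myg1 the share was higher, at 25.6% (19.5% to 32.9%) in dTAG-13 against 13.1% (11.7% to 14.6%) in DMSO. Of the few Myg1 reads left after 12 h, a larger part was thus converted than in DMSO (41 of 160 reads against 280 of 2135).

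In RNA-seq of the GABPA line at 12 h all 6 genes were low, at 2.78% to 27.4% of DMSO. Myg1 had 1.21 and 1.32 TPM in dTAG-13, against 47.3 and 45.7 TPM in DMSO, a log2 fold change of -5.17 ± 0.17. Fibp had 1.22 and 1.00 TPM in dTAG-13, against 39.1 and 39.2 TPM in DMSO, at -5.11 ± 0.17. These are ranks 5 and 6 among 9509 genes whose log2 CPM averaged 3 or more. Sssca1 had 6.92 and 4.98 TPM in dTAG-13, against 146 and 136 TPM in DMSO, at -4.54 ± 0.14. Ublcp1 had 1.32 and 1.29 TPM in dTAG-13, against 30.6 and 27.9 TPM in DMSO, at -4.46 ± 0.17. Prkab1 had 3.48 and 2.95 TPM in dTAG-13, against 56.2 and 54.1 TPM in DMSO, at -4.08 ± 0.11. Tbrg1 was the least affected, with 22.2 and 24.3 TPM in dTAG-13, against 87.0 and 85.8 TPM in DMSO, at -1.87 ± 0.08 and rank 259. All 6 were called lower, as were 21.9% of all genes (24.6% were called higher), from which nothing is read.

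The assays differed in order at 12 h. Tbrg1 stood at 27.4% of DMSO in RNA-seq, at 15.2% in converted reads and at 11.9% in all SLAM-seq reads, while Fibp stood at 2.90%, 13.9% and 9.68%, and Ublcp1 at 4.54%, 2.36% and 10.2%. SLAM-seq counts come from 3′ ends over whole gene intervals and RNA-seq counts from transcripts, so the values are set side by side without a test.

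Levels per transcript length (TPM) can be compared between the genes. In DMSO of the GABPA line they ordered as Sssca1 at 141 ± 7.04 TPM, Tbrg1 at 86.4 ± 0.80, Prkab1 at 55.2 ± 1.48, Myg1 at 46.5 ± 1.18, Fibp at 39.1 ± 0.06 and Ublcp1 at 29.3 ± 1.94 TPM (SD, n = 2), with no overlap between neighbours in the order. The place of Sssca1 rests on a mean transcript length of 700 bases, and its overlap with a second gene ID, given below, limits its level. In CPM, which ignore length, Sssca1 had 50.9 and 47.7, below Tbrg1 (118 and 116) and Prkab1 (79.2 and 76.1). After dTAG-13 Tbrg1 was highest at 23.3 ± 1.48 TPM, before Sssca1 at 5.95 ± 1.37 and Prkab1 at 3.21 ± 0.38 TPM. Ublcp1 at 1.31 ± 0.02, Myg1 at 1.27 ± 0.08 and Fibp at 1.11 ± 0.16 TPM came last. The libraries of Myg1 overlapped those of Ublcp1 and of Fibp, while Ublcp1 and Fibp were apart.

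After dTAG-13 the same genes were lower in the partner-subunit lines, more in the line with both tags than with GABPB1 alone. Protein was not analysed, so the number of tags, the extent of degradation and the line itself cannot be told apart. All 6 fell in the GABPB1/GABPB2 line, where 9.26% of genes were called lower and 3.53% higher, with a median log2 fold change of -1.97 beside 0.01 for all genes. All 6 fell in the GABPB1 line, where 5.46% of genes were called lower and 1.28% higher, with a median of -0.86 beside 0.00. Each adjusted p comes from the quasi-likelihood test of edgeR over all genes, with 2 libraries a group, and does not allow for the choice of the 6.

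Myg1 had 5.55 and 8.39 TPM with dTAG-13 in the GABPB1/GABPB2 line, against 42.0 and 39.9 TPM in DMSO, and 22.8 and 23.2 TPM with dTAG-13 in the GABPB1 line, against 48.1 and 47.6 TPM in DMSO. The log2 fold changes were -2.59 ± 0.13 (adjusted p = 5.68e-10) in the first line and -1.09 ± 0.10 (adjusted p = 4.02e-06) in the second. Prkab1 had 8.8 and 6.9 TPM with dTAG-13, against 37.9 and 38.6 TPM in DMSO, in the GABPB1/GABPB2 line, at -2.28 ± 0.10 (adjusted p = 9.33e-11). In the GABPB1 line Prkab1 had 19.5 and 20 TPM with dTAG-13, against 43.9 TPM in both DMSO libraries, at -1.18 ± 0.08 (adjusted p = 1.78e-07), the deepest of the 6 there.

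Ublcp1 fell to 9.67 and 6.95 TPM with dTAG-13 in the GABPB1/GABPB2 line, against 34.4 and 41.4 TPM in DMSO (-2.18 ± 0.12, adjusted p = 1.84e-09). In the GABPB1 line it fell to 18.9 and 18.3 TPM, against 37.5 and 37.1 TPM in DMSO (-1.04 ± 0.10, adjusted p = 7.83e-06). Sssca1 had 27.5 and 28.3 TPM with dTAG-13 in the GABPB1/GABPB2 line, against 92.8 and 91.4 TPM in DMSO (-1.76 ± 0.12, adjusted p = 1.48e-08). In the GABPB1 line it had 71.1 and 80.5 TPM with dTAG-13, against 120.0 and 117 TPM in DMSO (-0.68 ± 0.09, adjusted p = 0.000222). No dTAG-13 library of these genes reached a DMSO library of its line, as was so for 25.1% of all genes tested in the GABPB1/GABPB2 line and 30.7% in the GABPB1 line.

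Tbrg1 fell less, to 32 and 31.1 TPM with dTAG-13 in the GABPB1/GABPB2 line, against 73.4 and 73.3 TPM in DMSO (-1.22 ± 0.08, adjusted p = 7.8e-09), and to 48.2 and 53.2 TPM in the GABPB1 line, against 75.5 and 74.3 TPM in DMSO (-0.60 ± 0.07, adjusted p = 5.16e-05). Fibp, which was among the lowest after dTAG-13 in the GABPA line, changed least here. It had 19.1 and 17.2 TPM with dTAG-13 in the GABPB1/GABPB2 line, against 39.8 and 36.9 TPM in DMSO (-1.09 ± 0.10, adjusted p = 1.18e-06), and 23.7 and 26.1 TPM with dTAG-13 in the GABPB1 line, against 33.8 and 34.1 TPM in DMSO (-0.48 ± 0.09, adjusted p = 0.00402). The call of Fibp in the GABPB1 line was lost in 3 of 4 fits that left out a library of that line, with an adjusted p of 0.13 without dTAG-13 replicate 1, 0.0507 without DMSO replicate 1 and 0.0815 without DMSO replicate 2, and log2 fold changes between -0.56 and -0.38 over the 4 fits.

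The difference between the responses of the GABPB1/GABPB2 and GABPB1 lines, which share no library, passed the test for all 6 genes, as for 0.927% of genes in this direction. On the log2 scale it was -1.49 ± 0.17 for Myg1 (adjusted p = 0.000108), -1.14 ± 0.16 for Ublcp1 (adjusted p = 0.00106), -1.09 ± 0.13 for Prkab1 (adjusted p = 0.000146), -1.09 ± 0.15 for Sssca1 (adjusted p = 0.000878) and -0.63 ± 0.10 for Tbrg1 (adjusted p = 0.00455). For Fibp it was -0.61 ± 0.14 (adjusted p = 0.0467), a call lost with DESeq2 (adjusted p = 0.0773), with only these 8 libraries in the fit (adjusted p = 0.0702), and without any of 7 of the 8 libraries, at adjusted p between 0.057 (without dTAG-13 replicate 1 of the GABPB1 line) and 0.293 (without dTAG-13 replicate 2 of that line). The lines also differ in their DMSO levels, such as 92.1 ± 1.00 TPM of Sssca1 in the GABPB1/GABPB2 line and 119 ± 2.26 TPM in the GABPB1 line (SD, n = 2), and each response is relative to its own DMSO.

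**Figure D4:**
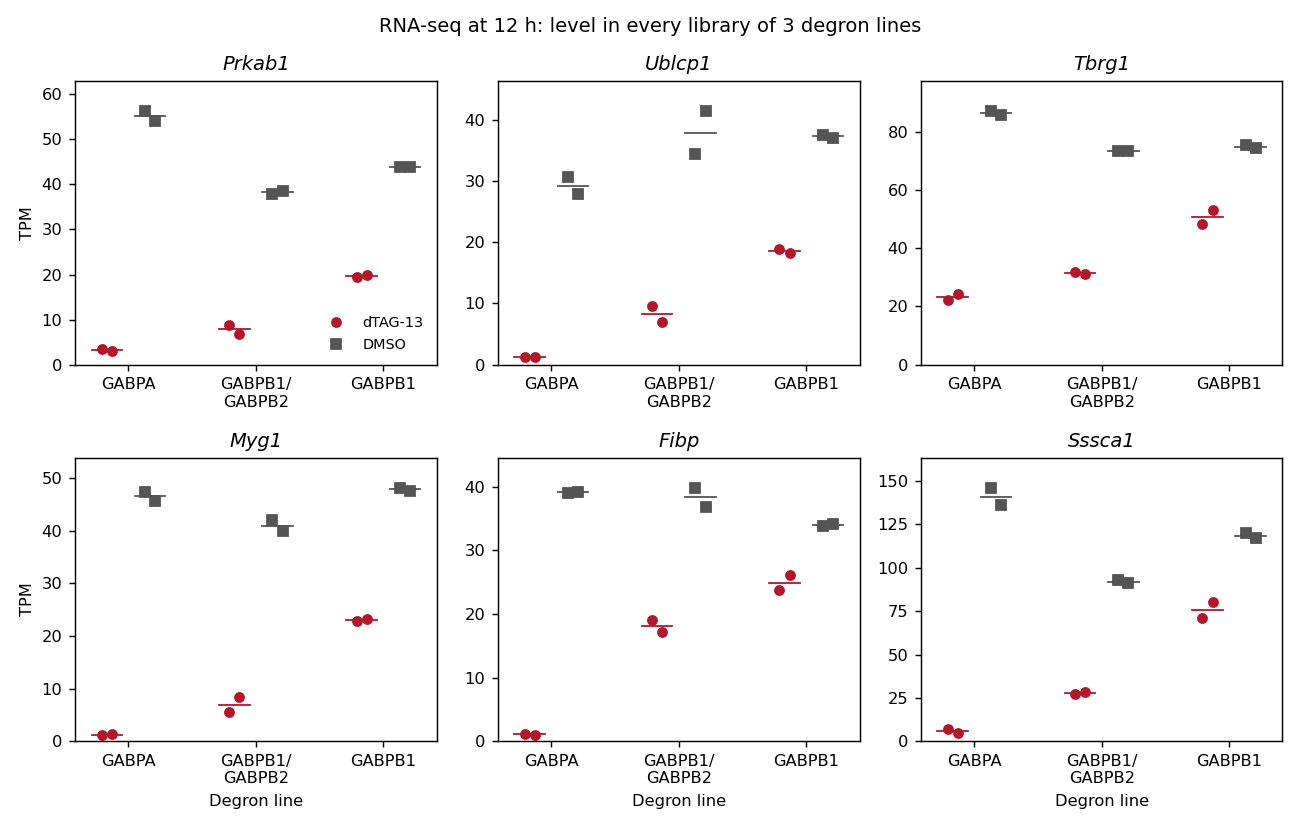
RNA-seq level (TPM) of each gene in every library at 12 h in the GABPA, GABPB1/GABPB2 and GABPB1 degron lines, dTAG-13 as red circles and DMSO as grey squares, with a line at each group mean (n = 2). In each panel the dTAG-13 libraries are lowest in the GABPA line, and those of the GABPB1/GABPB2 line lie below those of the GABPB1 line.

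Some of these genes share their place with others. A second gene ID under the symbol Sssca1 (ENSMUSG00000118125.2, mm39 chr19:5778116-5781741, minus strand) overlaps the first by 1411 bases. Over the 14 libraries Sssca1 had 1206 converted reads and the second ID 1430, so SLAM-seq reads in the overlap can stand in both. It changed by -0.05 ± 0.25, -0.99 ± 0.23, -2.19 ± 0.27 and -3.04 ± 0.24 over the time course, a smaller 12 h change than that of Sssca1. In RNA-seq it changed by -1.68 ± 0.22, -2.33 ± 0.33 and -0.91 ± 0.22 in the GABPA, GABPB1/GABPB2 and GABPB1 lines, beside -4.54, -1.76 and -0.68 for Sssca1. Gm16538, an antisense predicted gene that covers Sssca1 whole, and Gm14508, antisense to Prkab1, were looked at after their values were seen. Sssca1 held 13473 reads in all and 1206 converted ones, against 15609 and 157 for Gm16538. Prkab1 held 6263 and 928, against 5086 and 39 for Gm14508. In RNA-seq Gm14508, with 99 counts over the 12 libraries, had -5.17, -1.65 and -0.58 in the GABPA, GABPB1/GABPB2 and GABPB1 lines, beside -4.08, -2.28 and -1.18 for Prkab1, and without a known strand setting their reads cannot be told apart. All-read counts of such overlapping genes were thus of like size, while converted reads were far fewer on the antisense side. Siae, which overlaps the 3′ end of Tbrg1 by 893 bases on the other strand, had log2 fold changes between -0.11 and 0.30 in SLAM-seq and 0.27 in RNA-seq of the GABPA line. Ctsw touches Fibp by 9 bases, held 18 converted reads and had -1.47, -0.25 and -1.02 in RNA-seq of the GABPA, GABPB1/GABPB2 and GABPB1 lines. Pfdn5, which overlaps the start of Myg1 by 165 bases on the same strand and was also looked at after its values were seen, had -1.41, -0.64, -0.40 and -0.57 in converted reads over the time course and -0.05 in RNA-seq of the GABPA line.

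The genes most like the 6 were found by the distance between a gene's 7 log2 fold changes (SLAM-seq at 4 times, RNA-seq in 3 lines) and the median of the 6, over 8621 genes. They were Wdr3 at a distance of 1.03, Cops7a at 1.07, Dlst and Mrpl27 at 1.24 each, and Rpf1 at 1.41 log2 units. Wdr3 and Rpf1 encode ribosome-production factors, Cops7a a subunit of the COP9 signalosome, Dlst a component of the oxoglutarate dehydrogenase complex, and Mrpl27 a mitochondrial ribosomal protein. Of the 6 genes, Myg1 was nearest to the common pattern at 1.42 (rank 6) and Tbrg1 farthest at 3.17 (rank 121). An early set for comparison held the 10 genes called lower at 1 h that had the smallest p, Nip7, Nifk and Tmem208 among them. The 6 genes had median log2 fold changes of -1.11, -1.31, -1.86 and -3.89 in converted reads at 1, 2, 4 and 12 h, against -2.13, -1.77, -1.87 and -3.09 for the early set. In RNA-seq of the GABPA, GABPB1/GABPB2 and GABPB1 lines the 6 had medians of -4.50, -1.97 and -0.86, against -2.56, -1.02 and -0.52 for the early set. At 1 h the early set ran from -2.72 to -1.38, and Prkab1 (-1.85), Ublcp1 (-1.76) and Myg1 (-1.48) lay within this range. Fibp (-0.74), Tbrg1 (-0.33) and Sssca1 (-0.06) lay above it. In RNA-seq of the GABPA line the early set ran from -4.74 to 0.10, and the 6 genes from -5.17 to -1.87. Both sets were picked on these values, so the contrast is a description.

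The pathway partners of the 6 genes were counted from lists, to be read beside the shares of all genes called lower and higher: 21.9% and 24.6% in the GABPA line, 9.26% and 3.53% in the GABPB1/GABPB2 line, and 5.46% and 1.28% in the GABPB1 line. Of 11 other AMPK subunits and upstream kinases tested, 1 fell and 1 rose in the GABPB1/GABPB2 line (median 0.15), and 1 fell in the GABPB1 line (median 0.04), against 2 that fell and 3 that rose in the GABPA line (median 0.02). In converted reads of the GABPA line at 12 h, where 18.3% of all genes were called lower, 1 fell and 1 rose (median 0.27). The one that fell in all 3 lines was Prkag1, a γ subunit, at -1.21 ± 0.08 (adjusted p = 9.04e-10) in the GABPA, -0.83 ± 0.08 (adjusted p = 1.21e-06) in the GABPB1/GABPB2 and -0.56 ± 0.07 (adjusted p = 0.000123) in the GABPB1 line. Prkag2, another γ subunit, rose by 0.40 ± 0.12 (adjusted p = 0.0307) in the GABPB1/GABPB2 line.

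Of 18 subunits of the proteasome's regulatory particle, which Ublcp1 acts on, 8 fell and 1 rose in RNA-seq of the GABPA line (median -0.14), and 12 fell in its converted reads at 12 h (median -0.91), where 18.3% of all genes were called lower, while 2 fell in the GABPB1/GABPB2 line (median -0.02) and 2 in the GABPB1 line (median -0.06). Psmd6 had -2.05 ± 0.07 (adjusted p = 1.1e-12) in the GABPA line and -0.47 ± 0.07 (adjusted p = 0.000122) in the GABPB1/GABPB2 line. Psmc2, an ATPase of the particle, had -1.34 ± 0.07 (adjusted p = 7.94e-11) and -0.34 ± 0.07 (adjusted p = 0.002) in these lines. In the GABPB1 line Psmd13 fell by 0.29 ± 0.06 (adjusted p = 0.00409) and Psmc4 by 0.21 ± 0.06 (adjusted p = 0.0266). Of 7 polymerase II CTD phosphatases and relatives, 2 fell in the GABPA line (median -0.12), and 0 were called with edgeR in either other line (0 also at an unadjusted p under 0.05 and with DESeq2). In converted reads of the GABPA line at 12 h 2 of these 7 fell (median -0.08).

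Around Tbrg1, 4 of 7 genes of the ARF, MDM2 and p53 axis rose in the GABPA line (median 0.58), and 0 fell there (0 also at an unadjusted p under 0.05 and with DESeq2). Named after their values were seen, they were Mdm2 at 1.96 ± 0.08 (adjusted p = 8.35e-12), the inhibitor of p53, Cdkn1a at 1.19 ± 0.07 (adjusted p = 9.04e-10), a p53 target that halts the cell cycle, Mdm4 and Cdkn2a. In converted reads at 12 h Mdm2 and Mdm4 were also called higher, Cdkn1a had -0.07 ± 0.17 (adjusted p = 0.777), and Trp53 fell by 0.50 ± 0.18 (adjusted p = 0.0381). In RNA-seq Trp53 had -0.03 ± 0.05 (adjusted p = 0.668) in the GABPA line and fell by 0.20 ± 0.05 (adjusted p = 0.0211) in the GABPB1 line. Of the 7 genes, 0 rose and 0 fell in the GABPB1/GABPB2 line (median 0.10). In the GABPB1 line 0 rose and 1 fell (median 0.02). At an unadjusted p under 0.05, 1 rose in the first line and 2 in the second, and 0 rose with DESeq2 in either. Mdm2 had 0.19 ± 0.08 (adjusted p = 0.152) and 0.18 ± 0.08 (adjusted p = 0.238) in these lines. Of 11 FGF ligands, receptors and adaptors, 1 fell and 3 rose in the GABPA line (median 0.10), 1 fell in the GABPB1/GABPB2 line (median -0.01) and 1 rose in the GABPB1 line (median -0.03). Of the 10 FGF genes tested in converted reads of the GABPA line at 12 h, 0 fell and 5 rose (median 0.58). The receptor adaptor Frs2 fell by 2.03 ± 0.13 (adjusted p = 1.71e-09) in the GABPA line and by 0.72 ± 0.10 (adjusted p = 0.000114) in the GABPB1/GABPB2 line, although its converted reads had 0.42 ± 0.21 (adjusted p = 0.129) in SLAM-seq at 12 h. Its relative Frs3 rose by 1.29 ± 0.13 (adjusted p = 2.2e-07) in the GABPA and by 0.42 ± 0.12 (adjusted p = 0.0422) in the GABPB1 line. Of 10 mitochondrial nucleases and RNA-decay factors, 2 fell and 3 rose in RNA-seq of the GABPA line (median 0.13). In converted reads of that line at 12 h 3 fell and 0 rose (median -0.12). In the GABPB1/GABPB2 line 1 fell (median 0.04), and in the GABPB1 line 0 were called (median 0.04). Among them Slirp, an RNA-binding stabiliser of mitochondrial transcripts, had -1.45 ± 0.12 (adjusted p = 2.02e-08) in the GABPA and -0.38 ± 0.11 (adjusted p = 0.0246) in the GABPB1/GABPB2 line.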

How the data were processed

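Of 92 samples in the labels, 26 (12 RNA-seq and 14 SLAM-seq libraries, 13 groups of 2) were analysed, and 66 were not used here. The deposited RNA-seq tables hold expected counts, TPM and transcript lengths per gene. The submitters' processing notes list STAR 2.7.11a and RSEM 1.3.1. The deposited SLAM-seq tables hold counts of all reads, of reads with T-to-C conversions and of multimapping reads per gene interval, and their headers name slamdunk 0.4.3 and the GENCODE basic annotation (mm39). The strand setting of the counting was not given in the sources used here. Symbols were looked up by Ensembl ID. Sssca1 has 2 IDs, and the one nearest in length to RefSeq's Znrd2 was used.

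Expected counts were rounded. A single model per assay, with a mean for each group, was fitted in edgeR 4.0.16 under R 4.3.3 (TMM, filterByExpr at its limits of 10 counts and 15 in total, quasi-likelihood test, Benjamini-Hochberg adjustment over all genes, calls at an adjusted p under 0.05). The SE is the absolute log2 fold change over the square root of the F statistic. The script was tested on simulated data. SLAM-seq CPM relate to converted reads, so a change shared by all new RNA is not seen. The labels call replicates biological duplicates. The p-values set each difference against a spread estimated from such duplicates, shared over the groups of an assay and drawn together over genes. Spread between independently made lines is not covered.

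The 6 genes, the partner lists, the motifs and the naming rule were chosen with earlier results of these data known. The rule named the 6 genes, list members called in a partner line (up to 4 a list, smallest p first), named genes on the other strand overlapping or starting within 1000 bases, the 5 most like genes, and, as a set, the 10 genes with the smallest p at 1 h. Alternatives were DESeq2 1.42.0, edgeR with the size factors of DESeq2, no filter on low counts, a log2 CPM averaging 3 or more, only the libraries compared, a replicate block, leaving out each library, all reads, reads without conversions, scaling by all reads, and the motif core.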

Additional observations from a re-analysis of the deposited data

Results flagged for a closer look

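In RNA-seq at 12 h the response to dTAG-13 differed between the GABPB1/GABPB2 line and the GABPB1 line for each of the 6 genes, by edgeR's test of the difference itself. The response in the GABPB1/GABPB2 line minus that in the GABPB1 line was -1.49 for Myg1, -1.14 for Ublcp1, -1.09 for Prkab1, -1.09 for Sssca1, -0.63 for Tbrg1 and -0.61 for Fibp on the log2 scale. The value of Fibp is the one whose call was lost under other settings.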

How the results depend on the processing

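Counts of called genes in RNA-seq (6 in each of the 3 lines) were unchanged under every setting run other than leaving out a library, and the count for the difference between lines was 5 to 6. With 1 library left out, the counts were 5 to 6 in the GABPB1 line and for the difference, and 6 in the GABPA and GABPB1/GABPB2 lines, with Fibp the only gene lost. In SLAM-seq, leaving out 1 library gave 0 to 1 genes at 1 h, 3 to 5 at 2 h, 4 to 5 at 4 h and 6 at 12 h. DESeq2 gave 2 genes in place of 3 at 1 h and 5 in place of 6 at 4 h, and scaling by all reads gave 6 in place of 5 at 2 h. All reads gave 0 genes at 1 h (0 at an unadjusted p under 0.05) and 1 at 2 h. Reads without conversions gave 0 at 1 h and 0 at 2 h (0 and 3 at an unadjusted p under 0.05). The cause was not tested, beyond the larger number of genes tested there. The motif core in place of the 8 letters gave 6 promoters. No change of sign was seen for a called value. Scaling by all reads moved the median of all genes to -0.14, -0.17, -0.26 and -0.30 at 1, 2, 4 and 12 h, and that of the 6 genes to -1.24, -1.50, -2.15 and -4.22.

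Across genes, the log2 difference of replicate 1 and replicate 2 in dTAG-13 was correlated with the same difference in DMSO. The correlation was -0.041 to 0.034 in RNA-seq and -0.003 to 0.294 in SLAM-seq, with the highest value at 2 h. The main fit therefore held no replicate block, although a shared effect of the replicate number at 2 h is not excluded. With the replicate block the counts of called genes were 3, 5, 6 and 6 at 1, 2, 4 and 12 h and 6 in each line, and 5 for the difference, where Fibp had -0.61 (adjusted p = 0.0626). Depth limits the 1 h values, which rest on 5 to 21 converted reads a dTAG-13 library for Prkab1, Ublcp1, Myg1 and Fibp.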
